A study of Homo sapiens with 2 samples.

Results

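The replication-dependent histone genes are the genes that make the bulk of the histones H1, H2A, H2B, H3 and H4. They were taken as all protein-coding genes of the deposited table with an older name starting with HIST1H, HIST2H or HIST3H, or with the current names H1-1 to H1-5 or H2AC, H2BC, H3C or H4C followed by digits, matched through the Ensembl identifier. This gave 72 of the 60711 genes listed: 6 of type H1, 17 of H2A, 19 of H2B, 15 of H3 and 15 of H4. H1-6, H3-4 and H3-7 entered through their older names and H2BC12L and H4C16 through their current names. The cells were A549, a lung carcinoma line of human origin with wild-type p53, transfected 48 h earlier with control siRNA (the control library) or with a siRNA against MILIP, a long noncoding RNA also named MAFG-AS1 (the knockdown library). With 1 library per condition, neither a test nor a spread between replicates could be given, and each limit quoted covers counting error only.

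Most histone mRNA is made in S phase, when new DNA is packed into nucleosomes. These mRNAs are the known exception to polyadenylation in animal cells. Their 3′ end is formed just after a short stem-loop, which stem-loop binding protein (SLBP) holds through processing, translation and decay, and transcription depends on the coactivator NPAT, a substrate of cyclin E and CDK2. Several of the genes also give polyadenylated transcripts that run past the stem-loop, mainly described in cells that have left the cycle. The labels name total RNA, and whether poly(A) RNA was selected for the libraries is not given in the sources used here, so an absent value is not evidence of an absent mRNA.

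The stem-loop is shown first because it separates the gene models compared here. In the GENCODE release 29 transcripts (GRCh38), a stem-loop of 16 bases was found in 32 of the 72 genes, in 6 forms, and 12 of these 32 had a mean value of 1 or more. The other 40 models hold none, among them all 6 of type H1. Of the 72 models, 33 are coding sequence only and hold no bases past the stop codon. A model without a stem-loop is thus not evidence that the gene lacks one. In the lines below the stem is in capitals and the loop in lower case. The most frequent form is that of H2AC6 (chr6:26124669-26124684, + strand), found in 17 genes of types H2A, H2B and H3. The form of H2BC5 (chr6:26158587-26158602, + strand) is held by 5 genes, 3 of H2B and 2 of H3. The form of H4C8 (chr6:26285131-26285146, - strand) is held by 5 genes and that of H4C9 (chr6:27139654-27139669, + strand) by 3 genes, all of type H4. H2AC11 (chr6:27133515-27133530, + strand) has a form of its own, and the form left out here is held by 1 gene of type H3.
H2AC6: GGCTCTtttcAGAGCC
H2BC5: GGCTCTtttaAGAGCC
H4C8: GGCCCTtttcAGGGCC
H4C9: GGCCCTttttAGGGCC
H2AC11: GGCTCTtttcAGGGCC

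The deposited values were taken to be read counts scaled by 1 factor per library. All values above 0 were whole multiples of a step, 0.0501 in the control and 0.0503 in the knockdown library, so a value of 1 stands for 20 reads, and values under 1 are listed at 0. Taking 1 step as 1 read, the libraries hold 20300800 and 19460956 reads. MILIP was at 29.5 in the control library and 3.22 in the knockdown library. All 6 epithelial markers and all 5 genes known to be high in A549 had values in both libraries, while of 10 markers of blood, vessel and stromal cells only the monocyte gene CD14 was above 0, at 4.46 and 9.60.

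Of the 72 histone genes, 15 were above 0 in both libraries, and these are the 15 with a mean of 1 or more. A further 34 were listed at 0 in both libraries, 9 at 0 in 1 library, and 14 had no value. The count above 0 was 18 in the control library and 21 in the knockdown library. The 15 genes are 1 of 6 of type H1, 3 of 17 of H2A, 6 of 19 of H2B, 1 of 15 of H3 and 4 of 15 of H4. They stood near the floor of the table: their means ran from 1.30 to 16.8, and their values together made 0.00574% of the sum in the control library and 0.00907% in the knockdown library.

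**Figure D1:**
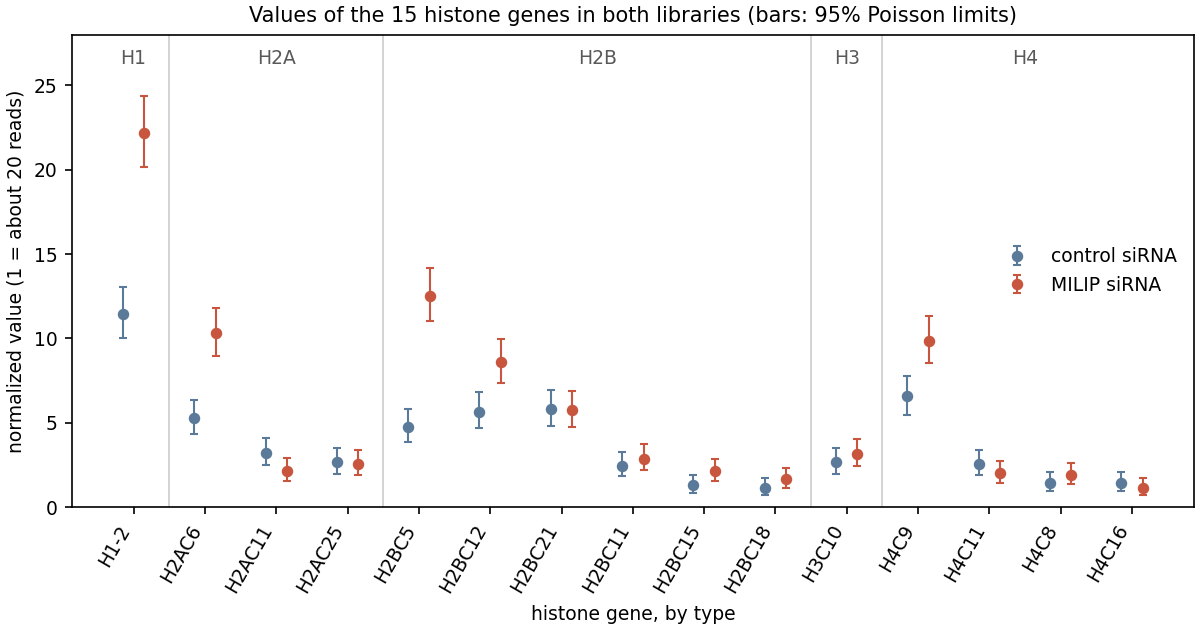
Normalized values of the 15 histone genes with a mean of 1 or more, ordered by histone type, in the control and the knockdown library (control siRNA and MILIP siRNA, 1 library each); bars are exact 95% Poisson limits of the read count and cover counting error only. The limits of the 2 libraries do not overlap for H1-2, H2AC6, H2BC5, H2BC12 and H4C9, where the value in the knockdown library is the higher. The same held for 25.4% of all genes above 0 in both libraries and for 18.8% of those of similar level.

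Against the control library, 3 of the 15 genes were higher by at least 1.5-fold in the knockdown library, H1-2, H2AC6 and H2BC5, and none was lower. This threshold was applied to the log2 ratio of the values with a pseudocount of 1. Over all 13521 genes that reached a mean of 1, 11.1% were higher and 13.8% were lower by the same threshold, and over the 4925 genes whose mean lay within the range of the histone genes, 14.8% and 11.8%. The count moved with the pseudocount: with 0.1 in place of 1, H2BC12 and H2BC15 also passed, making 5 of 15, and genes of similar level passed in 19.9% of cases. With no pseudocount H4C9 passed too, making 6 of 15 beside 19.9%. With the GC trend removed H2BC15 and H4C9 passed, making 5 of 15 beside 14.4%. Nothing particular to the histone genes is read from these counts. The median log2 ratio of the 15 was 0.25, beside −0.03 over all genes and 0.04 over genes of similar level, and 10 of the 15 ratios were above 0, as were 47.8% of all genes and 53.2% of those of similar level. For 5 genes, the 3 named with H2BC12 and H4C9, the 95% Clopper-Pearson limits of the ratio without a pseudocount lay above 0 on the log2 scale, for 10 they held 0, and for none did they lie below it. Limits above 0 were found for 30.4% of all genes above 0 in both libraries and for 26.1% of those of similar level.

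Summed over the 15 genes, the values were 58.4 in the control library and 88.8 in the knockdown library, or 1166 and 1766 reads. The sum was 1.52-fold higher, with limits of 1.41 to 1.64. The 3 higher genes made 36.8% of the control sum and 50.7% of the knockdown sum. Their own sum was 21.5 and 45.0, a 2.09-fold difference (limits 1.86 to 2.36). That of the other 12 was 36.9 and 43.8, a 1.19-fold difference (limits 1.07 to 1.31) with a median log2 ratio of 0.18. The 3 genes were chosen by these same values. The gap between the sums thus follows in part from the choice, which the limits do not allow for.

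H1-2 encodes a linker histone, which binds the DNA between nucleosomes and helps to compact chromatin. Its gene (HIST1H1C, ENSG00000187837) lies at chr6:26055787-26056428 on the - strand. The value was 11.5 in the control library and 22.2 in the knockdown library, from 229 and 441 reads. H1-2 had the largest value of the 72 genes in both libraries, and per kb of exon too it was first, at 17.9 and 34.5. Its log2 ratio was 0.89, and the ratio without a pseudocount was 1.93-fold (limits 1.64 to 2.28). The model used here is 642 bases of coding sequence with no UTR, and all of its 50-base windows occur in no other gene. Of the other H1 genes, H1-3 and H1-4 each stood at 1.01 in the knockdown library and had been listed at 0 in the control. H1-5 and H1-6, the latter a testis form, were at 0 in both libraries, and H1-1 had no value.

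Of the H2A genes, H2AC6 (HIST1H2AC, chr6:26124145-26139116, + strand) was the most abundant by value, at 5.26 in the control library and 10.3 in the knockdown library. These values rest on 105 and 205 reads. Its log2 ratio was 0.85 and its ratio without a pseudocount 1.96-fold (limits 1.54 to 2.50). H2AC6 has transcripts that continue for 1128 and 1114 bases past the stem-loop and end in a poly(A) signal. H2AC11 (HIST1H2AG) was at 3.21 and 2.16, the lowest log2 ratio of the 15 genes at −0.41, and its limits of −1.16 to 0.01 held 0. H2AC25 (HIST3H2A) was at 2.65 and 2.56, a log2 ratio of −0.04. The 3 genes thus did not share a direction. Their sum was 1.35-fold higher in the knockdown library (limits 1.13 to 1.62), with H2AC6 as the only member above its control value. Of the other 14 H2A genes, 8 were at 0 in both libraries and 6 had no value.

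Of the H2B genes, H2BC5 (HIST1H2BD, chr6:26158146-26171349, + strand) had the largest ratio of all 15 genes. Its value was 4.76 in the control library and 12.5 in the knockdown library, from 95 and 249 reads. The log2 ratio was 1.23 and the ratio without a pseudocount 2.63-fold (limits 2.07 to 3.37). H2BC5 has a transcript that ends 39 bases after the stem-loop and another, of 789 bases, that holds no stem-loop. Both have a poly(A) signal in their last 40 bases. In the control library H2BC5 stood below H2BC21 and H2BC12, with overlapping limits, and in the knockdown library above both.

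H2BC12 (HIST1H2BK) was at 5.66 and 8.60, from 113 and 171 reads. Its log2 ratio of 0.53 fell short of the threshold of 0.58, and its limits of 0.25 to 0.96 lay above 0. For this gene 25.9% of the 50-base windows of the model are its own, the rest being shared with other genes such as H2BC12L. How reads from shared windows were counted is not given, and such reads may be missing from the value. Per kb of exon, H2BC12 was second to H1-2, at 14.9 and 22.6. H2BC21 (HIST2H2BE), whose transcript runs 1729 bases past the stem-loop, was at 5.81 and 5.73, a log2 ratio of −0.02 with limits of −0.41 to 0.37. H2BC11 was at 2.45 and 2.87, a log2 ratio of 0.16, the lowest of the H2B genes after H2BC21.

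The last of the H2B genes had values close to the floor. H2BC15 was at 1.30 and 2.11, a log2 ratio of 0.43, and its exons overlap those of H2AC15 and H2AC16. H2BC18 was at 1.15 and 1.66, a log2 ratio of 0.31, and its exons overlap FCGR1A. How reads in overlapping exons were counted, and with which strand setting, is not given, so reads of such genes cannot be told apart. H2AC16 lies on the + strand, as H2BC15 does, and no strand setting would separate their reads. The 6 H2B genes summed to 21.1 and 33.5, a 1.58-fold difference (limits 1.40 to 1.79). Of the other 13, H2BC12L was at 0 in the control library and 1.01 in the knockdown library, 10 were at 0 in both libraries and 2 had no value. Of the windows of H2BC12L 0% are its own, so its value cannot be assigned to it alone.

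Among the core histones H3 and H4 no gene passed 1.5-fold with a pseudocount of 1. H3C10 (HIST1H3H), alone of the 15 H3 genes in having a mean of 1 or more, was at 2.65 and 3.17, a log2 ratio of 0.19 and a 1.19-fold ratio with limits of 0.815 to 1.75. Of the other H3 genes, H3C2 was listed at 0 in the control library and 1.46 in the knockdown library, H3C6 at 0 and 1.11, and H3C12 at 1.30 and 0. The exons of H3C12 overlap those of H2AC17. A further 8 were at 0 in both libraries and 3 had no value.

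H4C9 (HIST1H4I) led the H4 genes, at 6.56 in the control library and 9.85 in the knockdown library, from 131 and 196 reads. Its log2 ratio was 0.52, under the threshold. Without a pseudocount it was 0.59 (limits 0.26 to 0.92), and with the GC trend removed 0.67, both past the threshold. H4C11 was at 2.55 and 2.01, with a log2 ratio of −0.24, and 18.8% of its windows are its own. H4C8 was at 1.45 and 1.91, with a log2 ratio of 0.25, and H4C16, which lies on chromosome 12 away from the clusters, was at 1.45 and 1.16, with a log2 ratio of −0.19. Of these 4 ratios 2 were above 0 and 2 below, and the sum differed 1.24-fold (limits 1.04 to 1.48). H4C14 was listed at 0 in the control and 1.36 in the knockdown library. Its exons overlap H3C14, and 2.46% of its windows are its own. H4C2 and H4C3 were at 1.10 and 1.00 in the control and at 0 in the knockdown library. Of all 72 genes, 6 were thus listed at 0 only in the control library and 3 only in the knockdown library, none above 1.46 in the other library.

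**Figure D2:**
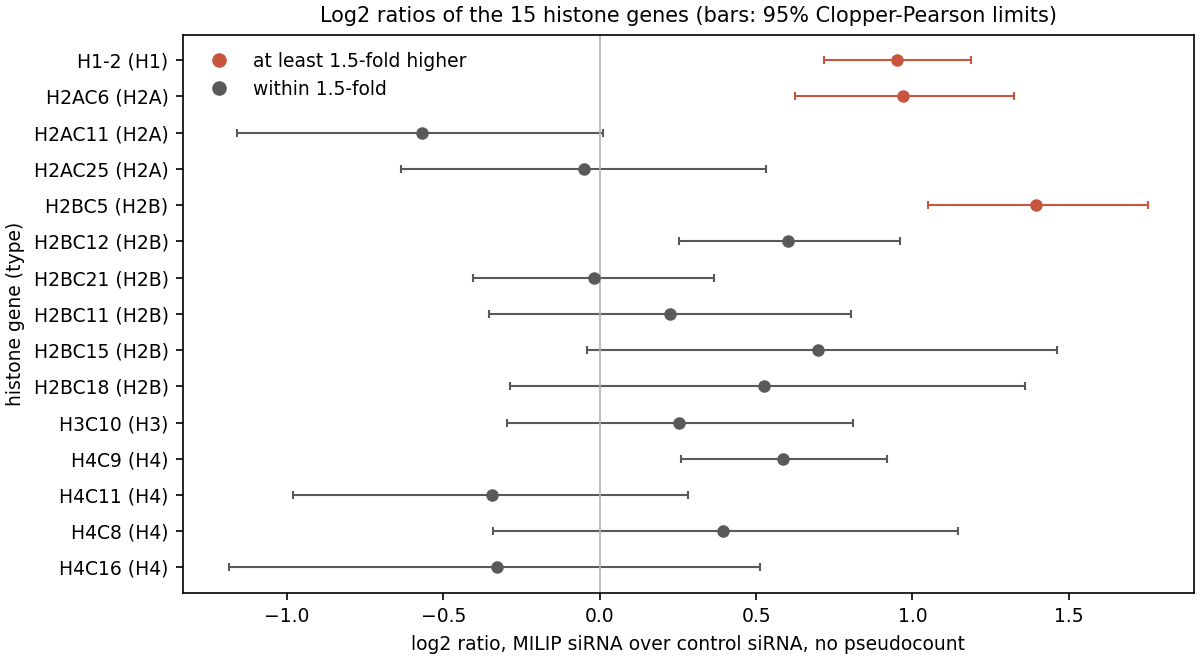
Log2 ratio (MILIP siRNA over control siRNA, no pseudocount) of the 15 histone genes, by type; bars are 95% Clopper-Pearson limits, and the genes at least 1.5-fold higher on the scale with a pseudocount of 1 are in red. The limits of H1-2, H2AC6, H2BC5, H2BC12 and H4C9 lie above 0, and those of the other 10 genes hold 0. Of all genes above 0 in both libraries 30.4% had limits above 0, and of those of similar level 26.1%.

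The genes with a mean of 1 or more had longer models than the others. Models that run over 100 bases past the stem-loop in at least 1 transcript belong to 23 of the 72 genes, and 10 of them (43.5%) had a mean of 1 or more. Of the 33 genes whose model is the coding sequence only, 2 did (6.06%), namely H1-2 and H2BC12, and of the 16 other models 3 did (18.8%). With a value above 0 in at least 1 library as the measure, the counts were 12 of 23, 4 of 33 and 8 of 16, and the extended and the other models then stood close to each other. A poly(A) signal, either AATAAA or the variant ATTAAA, stood in the last 40 bases of a transcript in 11 of the 15 genes with a mean of 1 or more and in 12 of the other 57. The median model length was 1294 bases for the 15 and 435 bases for the 57. A longer model can collect more reads at the same mRNA level, and since levels under 20 reads are listed at 0, the share of genes with values and model length cannot be told apart here. Per length the order was another: H1-2 and H2BC12, with coding sequence only, stood first and second per kb of exon in both libraries.

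**Figure D3:**
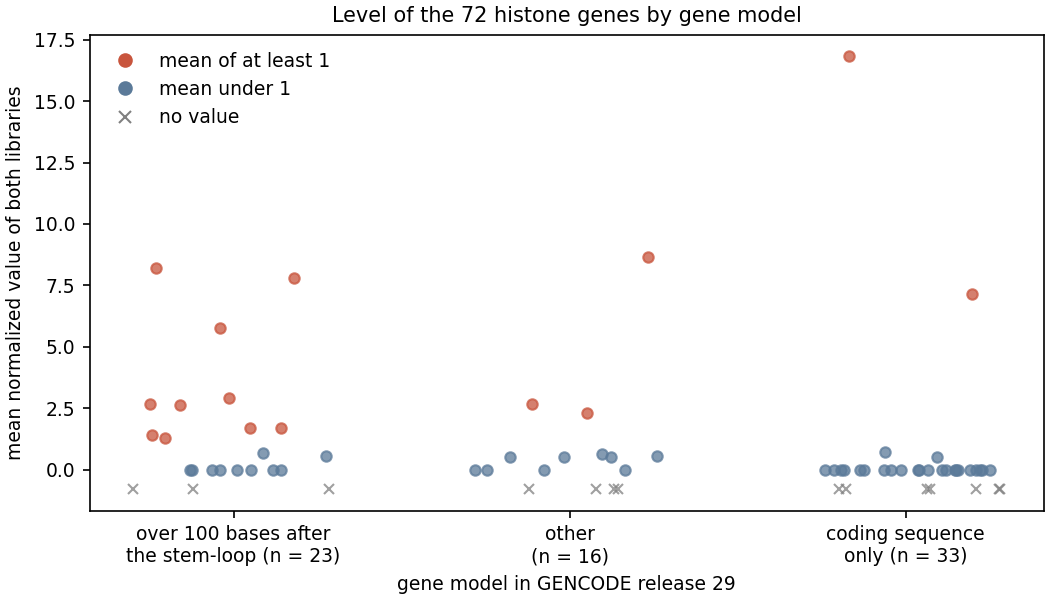
Mean normalized value of both libraries for the 72 histone genes, by the kind of gene model in GENCODE release 29; red points have a mean of at least 1, blue points a mean under 1, and crosses mark genes with no value (drawn below 0). Genes with a mean of 1 or more make 10 of 23, 3 of 16 and 2 of 33 in the classes from left to right, and the highest mean, that of H1-2, is in the class with coding sequence only.

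The large histone cluster lies on the short arm of chromosome 6, where the genes fall into groups separated by other genes. The first group with values (chr6:26017085-26285638, 268.6 kb) holds 32 of the histone genes, of which 4 had a mean of 1 or more. All 3 higher genes are among these 4, with H4C8. The sum of the 4 was 22.9 and 46.9, a 2.04-fold difference (limits 1.83 to 2.29). The second group (chr6:27125897-27147515, 21.6 kb) holds 5, of which H2BC11, H2AC11, H4C9 and H2BC12 had such a mean, with a sum of 17.9 and 23.5 and a 1.31-fold difference (limits 1.14 to 1.51). The third (chr6:27807444-27893843, 86.4 kb) holds 16, of which H3C10, H4C11 and H2BC15 had such a mean, with a 1.12-fold difference (limits 0.878 to 1.43). The larger difference of the first group thus came from the 3 higher genes, which were chosen by these same values. The limits of its other gene with such a mean, H4C8, held 0. The difference between groups was not tested.

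The 3 higher genes span chr6:26055787-26171349, or 115.6 kb. Between them lie 4 more histone genes. H1-6 and H2BC4 were at 0 in both libraries, and H4C3 and H1-4, named above, were at 0 in 1 library each, in opposite directions. HFE, an iron regulator of another family in the same stretch, was at 33.7 and 31.3, a log2 ratio of −0.10. Of the nearest genes before the first group, TRIM38 was at 9.27 and 16.5, a log2 ratio of 0.77, and LINC02980, between TRIM38 and the group, was at 2.30 in the control library and listed at 0 in the knockdown library.

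The promoters of the 3 higher genes are shown with that of H2BC21, a gene of similar level whose ratio was near 1, chosen after its values had been seen. Each is the stretch from 250 bases before to 50 bases after the RefSeq start (GRCh38.p14), read in the direction of the gene. The positions are chr6:26056421-26056720 (- strand) for H1-2, chr6:26123922-26124221 (+ strand) for H2AC6, chr6:26157871-26158170 (+ strand) for H2BC5 and chr1:149886633-149886932 (- strand) for H2BC21. Capitals mark matches on either strand to elements known from histone promoters, namely the CCAAT box, the TATA box as TATAAA, the octamer as ATTTGCAT and the H1 box as AAACACA.
H1-2: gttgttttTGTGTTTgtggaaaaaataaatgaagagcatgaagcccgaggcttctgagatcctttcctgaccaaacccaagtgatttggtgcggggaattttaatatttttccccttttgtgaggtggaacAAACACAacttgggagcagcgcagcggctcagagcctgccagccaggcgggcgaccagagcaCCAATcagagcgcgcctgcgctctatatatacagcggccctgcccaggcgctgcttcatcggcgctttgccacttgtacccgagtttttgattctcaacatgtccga
H2AC6: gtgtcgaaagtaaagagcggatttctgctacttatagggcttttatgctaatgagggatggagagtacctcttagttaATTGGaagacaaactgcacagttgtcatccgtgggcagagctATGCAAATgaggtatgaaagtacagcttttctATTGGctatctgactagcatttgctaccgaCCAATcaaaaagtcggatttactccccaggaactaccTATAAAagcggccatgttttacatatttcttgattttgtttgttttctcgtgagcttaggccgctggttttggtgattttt
H2BC5: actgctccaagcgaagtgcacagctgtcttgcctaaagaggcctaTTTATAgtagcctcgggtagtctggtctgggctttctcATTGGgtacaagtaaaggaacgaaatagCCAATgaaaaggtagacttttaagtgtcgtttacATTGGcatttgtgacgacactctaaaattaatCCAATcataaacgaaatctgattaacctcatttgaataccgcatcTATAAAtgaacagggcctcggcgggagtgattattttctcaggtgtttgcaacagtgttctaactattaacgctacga
H2BC21: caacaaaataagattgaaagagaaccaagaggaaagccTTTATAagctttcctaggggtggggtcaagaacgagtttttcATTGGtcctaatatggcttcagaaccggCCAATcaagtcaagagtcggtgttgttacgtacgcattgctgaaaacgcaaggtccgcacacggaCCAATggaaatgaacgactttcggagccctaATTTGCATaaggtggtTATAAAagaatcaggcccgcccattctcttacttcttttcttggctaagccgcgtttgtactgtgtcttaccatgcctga

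In these windows CCAAT stood in all 4 promoters, from 1 match in H1-2 to 4 in H2BC5. TATAAA stood close to the start in H2AC6, H2BC5 and H2BC21, at −31, −28 and −30, and not in H1-2. The octamer was present in H2AC6 and H2BC21 and not in H2BC5, and the H1 box was matched 2 times in H1-2. No motif was thus shared by the 3 higher genes and missing from H2BC21. Of the 72 genes, 66 had a promoter in the RefSeq table. CCAAT was in 84.8% of these and in 42.1% of all 15843 promoters, TATAAA in 68.2% and 12.4%, the octamer in 39.4% and 2.22%, and the H1 box in 13.6% and 5.83%. The octamer was held by 11 of 16 H2A and 14 of 18 H2B promoters, and the H1 box by all 6 of type H1. Of the 15 genes with a mean of 1 or more, 12 had the CCAAT box, 9 had TATAAA, 6 had the octamer and 1 the H1 box, beside 44, 36, 20 and 8 of the other 51. A match is a run of letters and not evidence of binding.

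Histone genes not counted as replication-dependent, most of which give polyadenylated mRNA, were taken as a second list. Of these 16 genes 11 had a mean of 1 or more. H3-3B and H3-3A, which both encode the replacement histone H3.3, were at 805 and 823 and at 380 and 516, with log2 ratios of 0.03 and 0.44. H2AZ1, which encodes the variant H2A.Z, was at 262 and 241, a log2 ratio of −0.12. CENPA, the H3 variant of centromeres, was higher in the knockdown library, at 29.6 and 55.9 (log2 ratio 0.90). MACROH2A2, which encodes a variant H2A with a macro domain, was also higher, at 35.6 and 61.2 (log2 ratio 0.77). The exons of CENPA overlap SLC35F6 and those of MACROH2A2 overlap AIFM2. These 2 of 11 were the higher genes and none was lower, beside 11.1% higher and 13.8% lower over all genes. The sum of the 11 was 1.09-fold higher and their median log2 ratio was 0.09, beside 1.52-fold and 0.25 for the replication-dependent genes.

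The factors that form the 3′ end of histone mRNA and govern its decay were all detected. Of these 30 genes none was higher by 1.5-fold (11.1% of all genes were) and 5 were lower (13.8% of all genes were). A ratio below 0 was found for 23 (52.4% of all genes above 0 in both libraries), and the median log2 ratio was −0.23. SLBP was at 90.6 in the control library and 65.1 in the knockdown library, a log2 ratio of −0.47 with limits of −0.58 to −0.37. CASP8AP2 (FLASH), which recruits the cleavage complex, was at 32.2 and 22.4, a log2 ratio of −0.50. Both were thus lower by less than the threshold. The 5 lower genes were TUT7, NCBP1, ERI1, CPSF2 and SNRPB. TUT7, a terminal uridylyltransferase, was at 39.6 and 19.9, and NCBP1, a subunit of the cap-binding complex, at 117 and 64.2. The 3′ exonuclease ERI1 was at 71.3 and 39.6, and CPSF2, a subunit of the cleavage complex, at 133 and 77.4. SNRPB, a core protein of small nuclear ribonucleoproteins, was at 335 and 199. The log2 ratios of these 5 genes ran from −0.96 for TUT7 to −0.75 for SNRPB. With the GC trend removed CPSF2 was at −0.54 and no longer past the threshold. SNRPG and SRRT, with SNRPB the most abundant of the list, were at 193 and 213 and at 192 and 170.

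Of the 17 genes tied to histone gene transcription, 1 was higher and 2 were lower, beside 11.1% and 13.8% of all genes. The median log2 ratio was 0.05. NPAT was at 22.9 and 13.9, a log2 ratio of −0.68 with limits of −0.94 to −0.50, and with the GC trend removed it was at −0.43 and no longer past the threshold. CDK2, whose kinase phosphorylates NPAT, was at 40.3 and 10.5, a log2 ratio of −1.84. The exons of NPAT overlap ATM and those of CDK2 overlap PMEL. POU2F2, a relative of the octamer-binding factor POU2F1, was at 1.15 and 3.47, a log2 ratio of 1.05 from a value near the floor. The 3 most abundant of the list, YY1, TRRAP and CREBBP, had log2 ratios of 0.05, −0.35 and −0.21. Of the 17 ratios 9 were above 0 and 8 below, while 47.6% of all genes above 0 in both libraries had a ratio above 0. The 3 higher histone genes thus stood beside lower values of NPAT and CDK2 in a list without a shared direction. SLBP was lower by less than the threshold, and no link between these genes and the histone genes was tested.

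Of 30 histone chaperone genes, which escort histones to and from DNA, 29 had a mean of 1 or more and their median log2 ratio was −0.01. Of the 29, 1 was higher and 1 was lower, beside 11.1% and 13.8% of all genes. CABIN1, part of the complex that deposits H3.3, was higher at 42.0 and 63.6, with a log2 ratio of 0.59 that lies at the threshold and was 0.43 with the GC trend removed. SET was lower at 798 and 520, with a log2 ratio of −0.62, which did not pass with the GC trend removed (−0.54). NPM1 and NAP1L1, the other most abundant of the list, were at 1845 and 1255 (log2 ratio −0.56) and at 922 and 956 (log2 ratio 0.05). Of the genes named from these lists, H3-3B also overlaps UNK in its exons and TRRAP overlaps SMURF1, and H3-3A, H2AZ1, NAP1L1, SNRPB and YY1 overlap genes that are not protein-coding or have no symbol.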

How the data were processed

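RNA was measured in 1 library of A549 cells per condition, control siRNA or MILIP siRNA. The deposited table gives 1 signal value per gene and library, taken from its steps to be read counts that the authors scaled by 1 factor per library. The submitters' processing notes name TopHat2 2.0.12, HTSeq 0.6.1 and hg38. The annotation, the strand setting and the method of scaling are not given in the sources used here. Values sum to 1016809 and 978499, and 100.0% of those above 0 were whole multiples of the step within 0.001 of a step, the lowest being 20 steps. The authors' columns of log2 fold change, p-value, q-value and call of change were not used.

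Genes were matched to GENCODE release 29 (GRCh38) by Ensembl identifier and to the RefSeq promoters (GRCh38.p14) by symbol. Current symbols were taken by Ensembl identifier or, failing that, through RefSeq synonyms of the older name. Log2 ratios used a pseudocount of 1 over the 13521 of 27856 genes with values whose mean of the 2 libraries was at least 1, and calls a threshold of 1.5-fold. Limits are 95% Clopper-Pearson intervals of the ratio without a pseudocount, 1 step taken as 1 read. They cover counting error only. No test was run, since there was 1 library per condition. Windows of 50 bases were compared across all transcripts. Every histone gene with a mean of at least 1 could be named, as could those at 0 in 1 library. From the 4 comparison lists SLBP, NPAT, CASP8AP2, each gene past the threshold and the 3 most abundant were named. HFE, TRIM38, LINC02980 and the pseudogene with a value were named after their values had been seen. The histone genes and the lists were chosen with earlier results of these data known. Alternatives were scaling to the same sum or by the median of ratios, a smaller pseudocount (0.1), other filters on low values, removal of the GC trend over 50 bins, genes with at least 50% of their windows their own, and a 2-fold threshold. Ratios without a pseudocount, and the sum and median without the 3 higher genes, were added after seeing the data. The calculations were tested on simulated data. The tools were Python 3.11.15, scipy 1.17.1, pandas 2.3.3, matplotlib 3.10.9 and numpy 2.4.6.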

Additional observations from a re-analysis of the deposited data

How the results depend on the processing

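No paired analysis was possible because control siRNA and MILIP siRNA are represented by 1 library each, and no replicate could be left out. The number of histone genes higher was 3, and became 1 with a 2-fold threshold, 5 with a pseudocount of 0.1 or with the GC trend removed, 6 without a pseudocount and 9 without a filter on low values. Over all genes these settings gave 3.48%, 13.3%, 11.0%, 13.0% and 14.0% higher. The number lower was 0, and became 3 without a filter, where the 3 are those listed at 0 in the knockdown library. The added genes without a filter, which kept 24 histone genes, are the 6 listed at 0 in the control library. Since values under 1 are listed at 0, any gene at 0 in 1 library only passed the threshold by construction. The log2 ratio of the summed values, 0.60, became 0.81 for the 6 histone genes whose mean was 5 or more. It became 0.25 without the 3 higher genes, which were chosen by their ratios. Under the other alternatives the counts stayed within 1.5 times and the sum within its limits. The median log2 ratio, 0.25, ran from 0.18 without the 3 higher genes to 0.69 for the 6 histone genes whose mean was 5 or more, and was 0.37 with a pseudocount of 0.1 or without a filter and 0.40 without a pseudocount. All 75 recomputed log2 ratios of single histone genes stayed within their counting limits. Those without a pseudocount had to, since the limits are of that ratio, and limits near the floor are wide, so this is a weak check. Of 72 counts of the 4 comparison lists, 59 stayed within 1.5 times. With the GC trend removed NPAT, CPSF2 and SET were no longer lower and CABIN1 no longer higher. SET was also no longer lower with scaling to the same sum. The median log2 ratio of all genes, −0.03, became 0.002 with scaling by the median of ratios and 0.02 with scaling to the same sum. Of the 57 histone genes given no ratio, 14 have no value and 43 a mean under 1.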

Other observations

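Of 20 histone pseudogenes in the same annotation, 7 had a value and 1 was above 0. This was H2BC20P, at 7.11 in the control library and 7.19 in the knockdown library, from 142 and 143 reads. Its control value lay above that of every H2B gene, the most abundant of which was H2BC21 at 5.81, while in the knockdown library it lay below H2BC5 and H2BC12. Over its model of 6440 bases this was 1.10 and 1.12 per kb, against 14.9 and 22.6 for H2BC12.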
